A study of Mus musculus with 8 samples.

Results

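The genes described here are 42 transcription factors that direct the making of organs and tissues outside the lymphocyte lineage: 8 of the Sox family, 8 of the Tbx family, 7 of the Fox family, 14 basic helix-loop-helix (bHLH) factors, 2 Gata factors and 3 zinc finger factors. They were taken by gene symbol from a list of names that was drawn up with earlier results of these data known, out of 18603 promoter windows and 22410 genes with RNA values. H3K27me3, the trimethylation of histone H3 that marks genes held silent by Polycomb, was measured by ChIP-seq, and RNA by RNA-seq, in naive CD4+ T cells that had been purified from the lymph nodes of 129SV/B6 mice. Cells came from 4 genotypes, each with 1 ChIP library and 1 RNA library, 8 libraries in all: WT, Ezh1 -/- (Ezh1 KO), Ezh2 fl/fl CD4-cre (Ezh2 KO), and the combination of Ezh1 -/- with Ezh2 fl/fl CD4-cre (double KO). CD4-cre expresses the recombinase from Cd4 regulatory sequence, so that the floxed Ezh2 is cut in developing T cells and not in the mouse as a whole, and another field of the labels writes the same allele as Ezh2-/-. With 1 library a group there is no replicate, no test and no p, and "higher" and "lower" compare single libraries throughout.

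PRC2, the Polycomb complex that places H3K27me3, works with either Ezh1 or Ezh2 as its enzyme. Dividing cells rely mainly on Ezh2, while Ezh1 is the form kept by resting cells such as naive lymphocytes. Promoters of developmental regulators, rich in CpG dinucleotides, are the classic targets of PRC2 in cells that do not use these genes. In T cells, other members of some of these families are in use, such as Foxo1 and Sox4, with WT RNA of 3.66 and 1.17 here. Gata3 and Tbx21 act in T cell fates, and their WT RNA in these naive cells was 0.254 and 0.0967.

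The level of H3K27me3 is a summed coverage, taken per M reads over the 25 bp bins of a 6 kb window at the gene start, in mm9 coordinates. ChIP depth was 78.2 to 88.2 M reads and RNA depth 36.1 to 94.1 M reads. Background windows were taken as those of the most highly expressed genes (the top tertile of WT RNA), 6902 in number, with a WT median of 10.2, and a window was called marked at 4 times that value, 41.0, or more in WT. By this rule 2191 of 18075 windows with signal were marked (12.1%). Their median was 51.7 in WT and 64.5, 47.8 and 57.2 in the Ezh1 KO, Ezh2 KO and double KO, while the background medians were 10.2, 9.93, 11.2 and 10.5, so the contrast between marked and background windows itself differed between libraries. Ezh1 RNA was 1.05 in WT and 0.196, 1.12 and 0.194 in the Ezh1 KO, Ezh2 KO and double KO. Ezh2 RNA, averaged over all exons, was 0.925, 0.913, 1.08 and 1.17 in the same order; the mean includes exons outside a floxed part, so it checks nothing of the deletion, for which the labels are the only source here. All 10 T cell marker genes were at 1 or more in each RNA library.

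The 250 bases upstream of the start are shown for 5 members chosen after their values were seen: Olig3 with the highest window in WT, Foxc1 with a CpG-dense marked promoter, Foxa2 with one of the larger differences from WT, and Sox11 and Myf5, which were not marked in WT. The sequences are RefSeq promoters of the GRCm38.p6 table, placed on mm9 by an exact search of the NCBIM37 genome, written 5′ to 3′ on the strand of the gene, and capitals mark each CG dinucleotide. They lie at chr10:19076095-19076344 on the plus strand (Olig3), chr13:31898265-31898514 on the plus strand (Foxc1), chr2:147872706-147872955 on the minus strand (Foxa2), chr12:28027584-28027833 on the minus strand (Sox11) and chr10:106923191-106923440 on the minus strand (Myf5).
Olig3: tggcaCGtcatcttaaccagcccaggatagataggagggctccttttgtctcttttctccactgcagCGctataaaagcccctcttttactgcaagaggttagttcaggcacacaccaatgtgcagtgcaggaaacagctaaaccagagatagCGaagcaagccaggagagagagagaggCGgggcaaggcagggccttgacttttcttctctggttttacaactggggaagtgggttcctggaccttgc
Foxc1: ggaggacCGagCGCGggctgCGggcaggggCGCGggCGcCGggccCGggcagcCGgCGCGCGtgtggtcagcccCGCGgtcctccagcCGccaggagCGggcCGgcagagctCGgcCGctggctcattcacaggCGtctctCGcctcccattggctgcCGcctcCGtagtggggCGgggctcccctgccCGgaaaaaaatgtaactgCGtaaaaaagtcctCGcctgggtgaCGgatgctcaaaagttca
Foxa2: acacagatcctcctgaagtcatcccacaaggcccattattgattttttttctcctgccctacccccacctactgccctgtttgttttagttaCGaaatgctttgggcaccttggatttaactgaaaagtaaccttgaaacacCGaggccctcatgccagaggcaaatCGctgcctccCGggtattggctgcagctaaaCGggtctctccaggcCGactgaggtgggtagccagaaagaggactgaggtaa
Sox11: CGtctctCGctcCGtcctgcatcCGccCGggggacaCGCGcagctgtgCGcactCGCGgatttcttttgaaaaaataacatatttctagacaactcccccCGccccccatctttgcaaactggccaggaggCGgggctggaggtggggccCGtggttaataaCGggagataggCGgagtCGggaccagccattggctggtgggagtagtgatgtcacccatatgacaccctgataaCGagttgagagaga
Myf5: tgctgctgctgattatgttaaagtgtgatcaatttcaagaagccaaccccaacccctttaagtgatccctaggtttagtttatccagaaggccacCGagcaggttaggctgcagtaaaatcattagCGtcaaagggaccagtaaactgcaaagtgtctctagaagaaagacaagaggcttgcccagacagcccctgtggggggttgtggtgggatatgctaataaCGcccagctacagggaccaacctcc
Foxc1 holds 29 CG dinucleotides in these bases and Sox11 holds 17, while Foxa2 has 6, Olig3 has 4 and Myf5 has 3. The count in the promoter therefore does not sort the marked from the unmarked promoters among these 5: Olig3, the most heavily marked member, and Myf5, at the background level, are alike in it.

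Of the 42 members, 39 had H3K27me3 signal, and 36 of these were marked in WT (92.3%, against 12.1% of all windows with signal). At 6 times the background median, 11 were past the level, and 14 were at 4 times background by the highest bin of the window. The shares of all windows by these other rules were not computed, so these counts have no comparison. The members' median level, over the 39, was 52.8 in WT and 73.7, 53.7 and 69.7 in the Ezh1 KO, Ezh2 KO and double KO. In units of the background median of each library this was 5.16, 7.42, 4.80 and 6.64 times. The Ezh1 KO and the double KO libraries were thus high and the WT and Ezh2 KO libraries low for these genes. By its median over the members, the highest bin was 2.37 times the window mean in WT. It was 3.35 times in background windows and 2.27 times in the other marked windows. In the 3 members with signal that were not marked it was 3.78 times. The part of the H3K27me3 level in this ratio was not tested.

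The remaining 3 members, Olig1, Olig2 and Sox21, are listed at 0 in each of the 4 ChIP files, and their values are a gap of the tables, not a measured lack of the mark. Olig1 and Olig2 are factors of the oligodendrocyte lineage and Sox21 a factor of neural progenitors. From position 88871500 on chromosome 16 to the last window there, all 85 windows are at 0, among them 23 genes with WT RNA of 1 or more such as Ifnar1 (3.49) and Son (6.81). Chromosome 14 shows the same for its last 40 windows from position 106502413, which take in Sox21. These 3 members entered no comparison of H3K27me3.

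**Figure D1:**
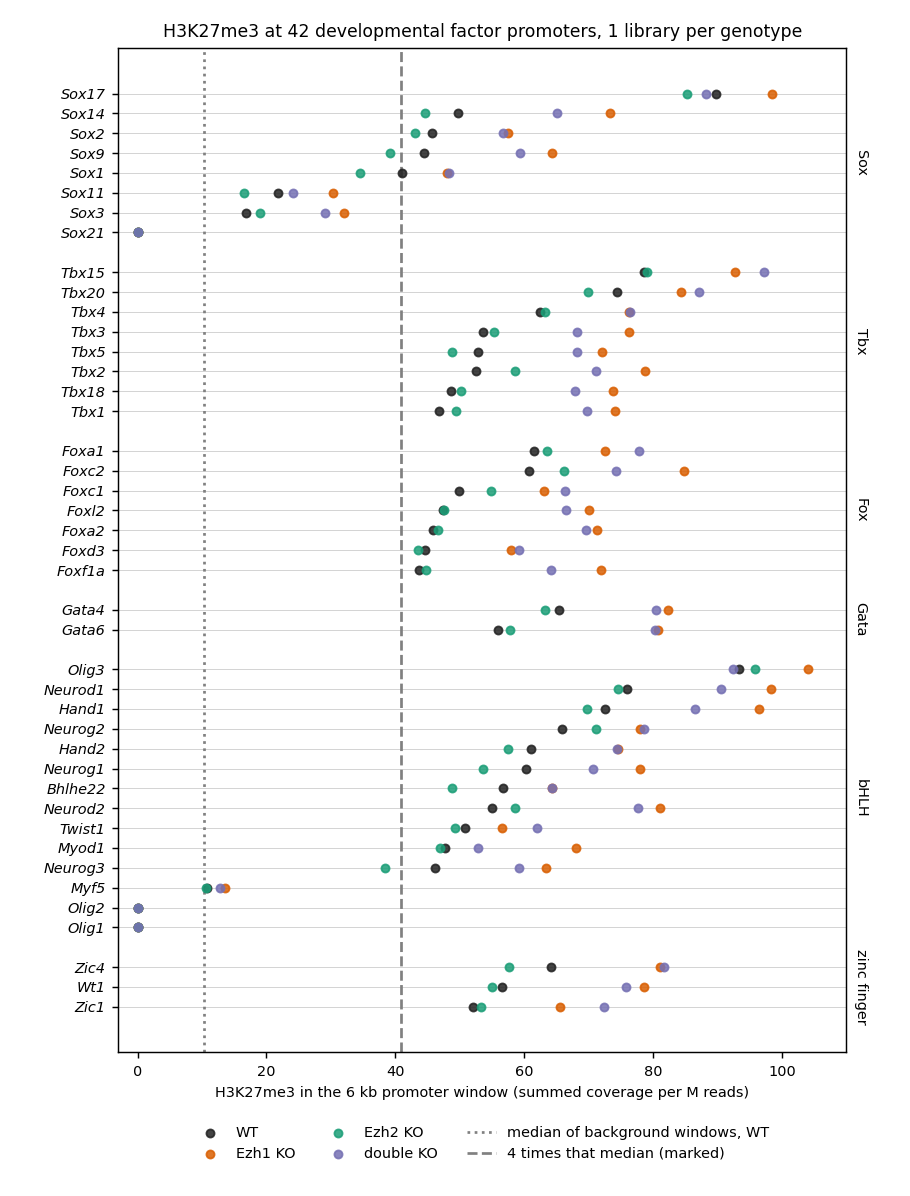
H3K27me3 level (x axis, coverage per M reads summed over the 6 kb window) of each of the 42 members (y axis, grouped by family and ordered by WT level), with 1 point per library; the dotted line is the WT background median and the dashed line the level of 41.0 that defines a marked window. Most WT and Ezh2 KO points lie left of the Ezh1 KO and double KO points of the same gene, and Myf5, Sox3 and Sox11 lie left of the dashed line in WT.

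Sox windows ran from 16.8 to 89.8 in WT. Sox17, a factor of endoderm and of the fetal blood and vessel lineages, had 89.8 in WT and 98.5, 85.3 and 88.2 in the Ezh1 KO, Ezh2 KO and double KO. Its window (chr1:4484435-4490435) was higher than 99.95% of all windows with signal in WT, and its 4 libraries lay close together. Sox1, a neural progenitor factor at chr8:12393353-12399353, was just past the marked level with 41.0, 48.0, 34.5 and 48.3 in the same order. Sox3, which acts in the pituitary and the neural tube, had 16.8, 32.0, 19.0 and 29.0, and Sox11, a factor of differentiating neurons, had 21.8, 30.4, 16.5 and 24.1. Neither of these was marked in any library by that library's own background. Sox3 is on chromosome X (chrX:58143605-58149605), where the median window was 6.33 in WT against 14.2 on the autosomes. Sox2 (a pluripotency and neural stem cell factor), Sox9 (cartilage and testis) and Sox14 (interneurons) lay between, at 45.7, 44.5 and 49.7 in WT.

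Tbx and Fox windows were marked throughout, 8 of 8 and 7 of 7 in WT. Tbx15, a factor of limb and skeletal development, was the highest Tbx member in WT, with 78.6 there and 92.8, 79.1 and 97.3 in the Ezh1 KO, Ezh2 KO and double KO. Tbx1, the pharyngeal arch factor, had the lowest WT level, with 46.8, 74.2, 49.4 and 69.7. The gap between these 2 genes was smaller in the Ezh1 KO than in WT. In the Fox family Foxa1, a pioneer factor of endoderm, had the highest WT level, with 61.6, 72.6, 63.6 and 77.8, and Foxf1a, a factor of lung and gut mesenchyme, the lowest, with 43.7, 71.9, 44.8 and 64.1. Both pairs of libraries separated in Foxf1a, the Ezh1 KO and double KO being high and the WT and Ezh2 KO low. Tbx2 and Tbx4 are neighbours, with window centres 53871 bp apart, as are Foxc2 and Foxf1a (32109 bp) and Tbx3 and Tbx5 (163994 bp), so these members share a chromosome region. The other Tbx members, Tbx2 and Tbx3 (repressors in heart and limb), Tbx4 and Tbx5 (hindlimb and forelimb), Tbx18 and Tbx20 (heart), lay between 48.6 and 74.4 in WT, and the other Fox members, Foxa2, Foxc1, Foxc2, Foxd3 and Foxl2, between 44.6 and 60.8.

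Of the 12 bHLH windows with signal, 11 were marked. Olig3, a factor of the dorsal neural tube at chr10:19073366-19079366, had 93.4 in WT and 104.1, 95.9 and 92.4 in the Ezh1 KO, Ezh2 KO and double KO, the highest WT level of all members. Neurod1, a factor of neurons and endocrine pancreas, had 75.9, 98.3, 74.6 and 90.5, and its window shares 5966 of its bases with that of Cerkl, so the value belongs to both genes. Myf5 (chr10:106920190-106926190), which starts the skeletal muscle programme with Myod1, was at the background level with 10.8, 13.6, 10.7 and 12.7. Myod1 itself, at 47.8, 68.1, 46.9 and 52.8, was marked, so the pair of muscle determination factors differed in H3K27me3 in each library. Neurog3, the factor of endocrine pancreas precursors, had 46.1, 63.3, 38.4 and 59.2 and was the lowest of the marked bHLH members in WT. The rest of the family, Hand1 and Hand2 (heart and limb), Neurog1, Neurog2, Neurod2 and Bhlhe22 (neurons) and Twist1 (mesenchyme), ranged from 50.8 to 72.6 in WT, and of these Bhlhe22 had 56.8 in WT and 64.3, 48.8 and 64.4 in the Ezh1 KO, Ezh2 KO and double KO.

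Gata4 and Gata6, factors of heart and endoderm, had similar levels. Gata4 had 65.4 in WT and 82.4, 63.3 and 80.5 in the Ezh1 KO, Ezh2 KO and double KO, and Gata6 had 55.9, 80.8, 57.8 and 80.2. Their difference in WT was not seen in the Ezh1 KO and double KO. Among the zinc finger members, Wt1, a factor of kidney and gonad, had 56.6, 78.6, 55.0 and 75.8. Zic4 had 64.2, 81.1, 57.6 and 81.8, and Zic1 had 52.1, 65.6, 53.3 and 72.3. Both act in the developing cerebellum and share 2838 bases of their windows, so they are not independent.

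In the Ezh1 KO each of the 39 members had more H3K27me3 than in WT (34 by the highest bin, and 28 with marked medians set equal): log2 ratios ran from 0.13 to 0.89 with a median of 0.37. Most other windows were higher too, 92.6% of the other marked windows and 64.1% of all windows. The median was 0.29 over the 2155 other marked windows and 0.09 over all windows, so the members stood 0.08 above the other marked windows, and 28 of the 39 members were above their median. Those windows were picked by a high value in the WT library, the denominator here, which in itself tends to lower their ratios. The members were picked by name, and 3 of them were not marked in WT. The 36 marked members alone had a median of 0.37. The part of this choice in the gap of 0.08 was not tested. A difference of 1.5-fold or more was found for 5 of 39 members (12.8%), all higher, where 1.93% of all windows and 4.2% of marked windows were that much higher, and 0 members were lower (0.256% of all windows). The 5 were Sox3, at log2 0.89 (95% counting interval 0.69 to 1.17), Foxf1a at 0.71 (0.57 to 0.87), Tbx1 at 0.65 (0.52 to 0.81), Foxa2 at 0.62 (0.49 to 0.78) and Tbx18 at 0.59 (0.46 to 0.75). Foxa2, which with Foxa1 opens chromatin in endoderm and liver, had 45.9 in WT and 71.2, 46.7 and 69.6 in the Ezh1 KO, Ezh2 KO and double KO, and Tbx18, a factor of heart and ureter, had 48.6, 73.7, 50.2 and 67.9. Tbx2, at 0.58, was just under the limit. All 5 had WT levels under the members' median of 52.8, and a low WT value in itself raises this ratio. Over the 36 marked members, r between the WT level and the ratio was -0.59. It was -0.47 and -0.32 for the Ezh2 KO and double KO levels, which do not enter the ratio. The count of 5 moves with the scale between libraries: it was 2 with TMM or median-of-ratios scaling, 9 with background medians set equal and 0 with marked medians set equal. Shares of all windows under these scalings were not computed, here or in the other comparisons.

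The counting interval is exact (Clopper-Pearson) on read equivalents, of which the members' windows held 138 to 1501 in a library; it covers counting error only, not differences between mice or preparations. In the Ezh1 KO all 39 intervals lay above 0. Intervals were not computed over all windows or over the other marked windows. Counts of intervals, here and in the other comparisons, thus have no comparison. The smallest ratios were those of Sox17 at 0.13 (0.02 to 0.25), Twist1 at 0.15 (0.00 to 0.30) and Olig3 at 0.15 (0.05 to 0.27); Sox17 and Olig3 had the highest windows in WT. At a lower threshold, a log2 ratio of 0.32, 27 of the 39 members (69.2%) were higher, against 18.4% of all windows and 42.6% of marked windows. By family the median log2 ratio was 0.47 in Tbx, 0.47 in Fox, 0.46 in Sox, 0.43 in Gata, 0.33 in bHLH and 0.33 in zinc finger, and each of these was above 0 under each scaling tried. With the marked windows of both libraries set to equal medians they came to between 0.02 and 0.16, and 28 members were above 0 and 11 below.

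In the Ezh2 KO the members were close to WT as a group. The median log2 ratio was -0.02, with 18 members above 0 and 21 below, beside -0.12 over the other marked windows and -0.01 over all windows; 31 of the 39 members were above the median of the other marked windows. Above 0 were 20% of the other marked windows and 48.6% of all windows. At 1.5-fold 0 of 39 members were higher (0.606% of all windows) and 0 were lower (0.795% of all windows). Counting intervals spanned 0 for 31 members, lay below 0 for 7 and above 0 for 1, Tbx2 at 0.16 (0.01 to 0.31). Of the 7 below, Sox11 was the farthest at -0.38 (-0.67 to -0.14), followed by Neurog3 at -0.26 (-0.44 to -0.09) and Sox1 at -0.24 (-0.43 to -0.07), and the others were Bhlhe22, Sox9, Neurog1 and Zic4. The Sox family stood lowest, with 6 of 7 members below 0 and a median of -0.15, which kept its sign under each scaling and measure tried (-0.27 to -0.04). Medians of the other families were between -0.04 and 0.04 and took either sign with the scaling. Whether the Sox family differs from the other families was not tested.

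Counted by each library's own background, the Ezh2 KO library had 30 marked members, and WT, the Ezh1 KO and the double KO had 36 each. The 6 marked in WT but not in the Ezh2 KO were Sox1, Sox2, Sox9, Sox14, Foxd3 (a neural crest factor) and Neurog3, which had WT levels of 41.0 to 49.7. All windows together gave 2191, 3101, 1368 and 2330 by the same count, so the Ezh2 KO library had fewer marked windows in general. The highest bin of the window gave another picture of this library: the members' median log2 ratio by that measure was 0.12, beside 0.01 for the other marked windows, and the highest bin was 2.62 times the window mean against 2.37 times in WT.

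In the double KO 37 of 39 members were above WT, with a median log2 ratio of 0.33, where the other marked windows had 0.12 and all windows 0.05. Of the other marked windows 73.4% were above WT, and of all windows 59.6%. Of the 39 members, 37 were above the median of the other marked windows, and 34 counting intervals lay above 0 and 0 below. At 1.5-fold, 2 members (5.13%) were higher, Sox3 at 0.75 (0.55 to 1.03) and Foxa2 at 0.59 (0.45 to 0.75), against 1.14% of all windows and 0.319% of marked windows, and 0 were lower, against 1.48% of all windows. The count of 2 was 1 under each of the 4 scalings tried and 4 by the highest bin. At a log2 ratio of 0.32 the count was 20 members (51.3%), beside 11% of all windows and 13.6% of marked windows. The members below WT were Sox17 at -0.03 (-0.14 to 0.09) and Olig3 at -0.01 (-0.13 to 0.10), the members with the highest WT windows. Family medians were 0.42 in zinc finger, 0.41 in Fox, 0.40 in Gata, 0.35 in Tbx, 0.31 in Sox and 0.25 in bHLH, and each was above 0 under each scaling tried.

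All 3 comparisons with WT use the same WT library, so a low WT value raises all 3 ratios of a gene at once. For Foxa2 the 3 log2 ratios were 0.62, 0.02 and 0.59 for the Ezh1 KO, Ezh2 KO and double KO. For Foxf1a they were 0.71, 0.04 and 0.54, and for Tbx1 0.65, 0.08 and 0.56. These genes were high in the libraries labelled Ezh1 KO and double KO and near WT in the library labelled Ezh2 KO, whose loss of Ezh2 rests on the labels. Myod1 was an exception among the marked members, with 0.50, -0.03 and 0.14.

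**Figure D2:**
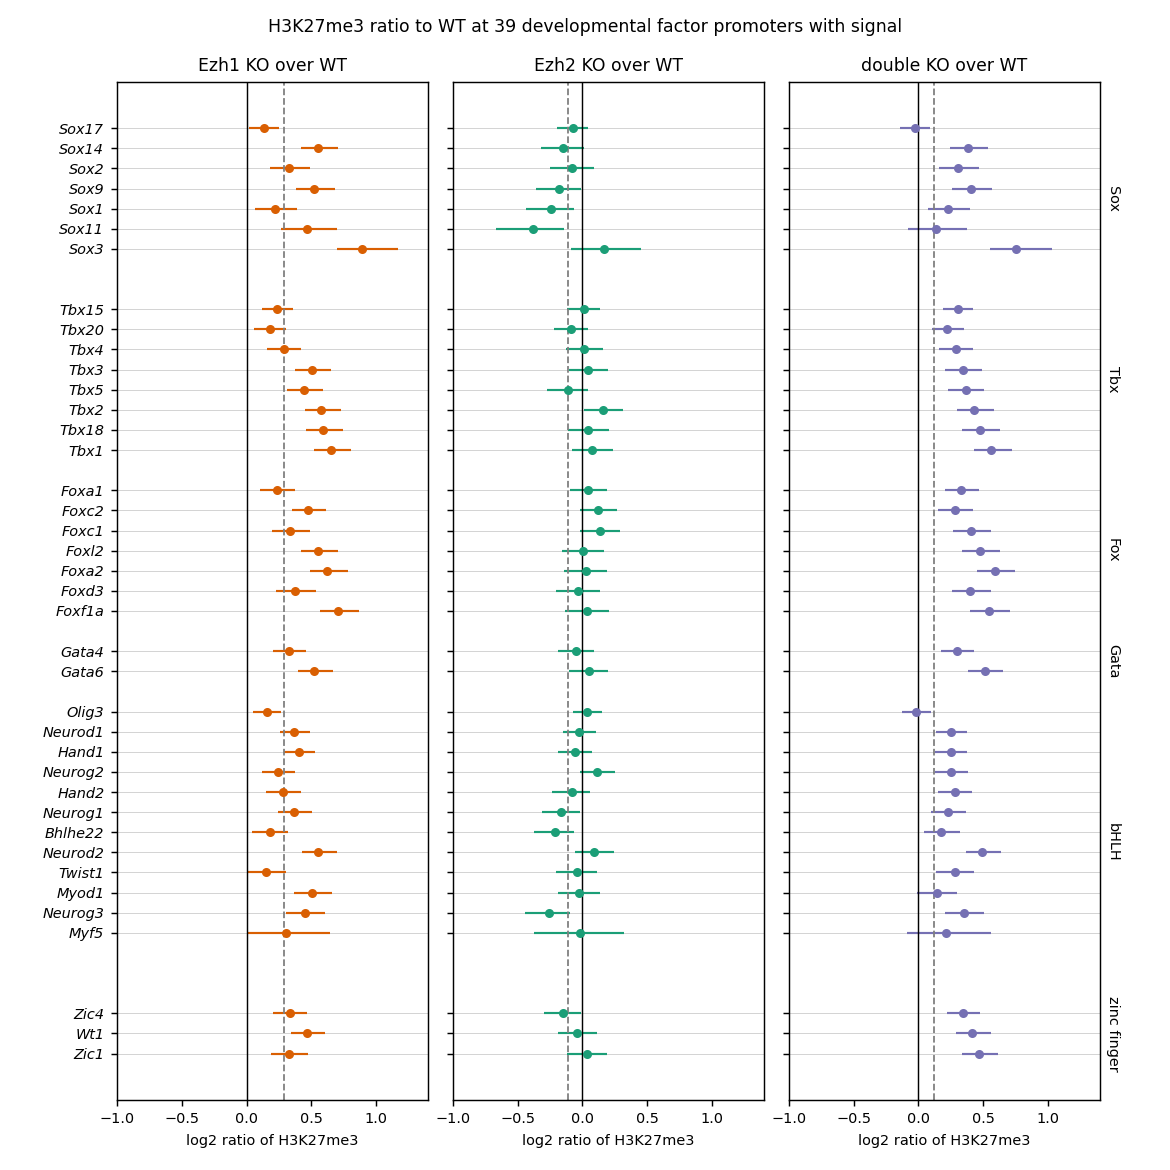
Log2 ratio of H3K27me3 to WT (x axis, pseudocount 1) for the 39 members with signal, in the Ezh1 KO, Ezh2 KO and double KO. Bars are 95% counting intervals, which cover counting error only. Dashed lines are the medians of all 2191 marked windows, marked members included (0.29, -0.12 and 0.12). In the Ezh1 KO all 39 bars lie right of 0, in the Ezh2 KO 31 bars cross 0, and in the double KO 37 points lie right of 0.

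The double KO was also set beside each single KO. Against the Ezh1 KO the members' median log2 ratio was -0.07, with 12 above 0 and 27 below, beside -0.17 over the other marked windows and -0.05 over all windows. Above 0 were 9.61% of the other marked windows and 42% of all windows. At 1.5-fold 0 members were higher (0.373% of all windows) and 0 lower (2.18% of all windows). The largest differences were those of Myod1 (-0.36) and Sox11 (-0.32). Against the Ezh2 KO the median was 0.39, with 38 members above 0, beside 0.23 over the other marked windows and 0.05 over all windows. Here 91.2% of the other marked windows and 58.1% of all windows were above 0. At 1.5-fold 2 members (5.13%) were higher in that comparison, Neurog3 at 0.61 and Sox9 at 0.59, against 0.534% of all windows, and 0 were lower, against 0.289%. The count of 2 was 0 to 8 over the 4 scalings tried. By the highest bin in place of the area the median over the Ezh2 KO was 0.13, beside 0.11 for the other marked windows. By the medians of all members the double KO library lay nearer to the Ezh1 KO library than to the Ezh2 KO library under each scaling and measure tried; the 2 comparisons share the double KO library.

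**Figure D3:**
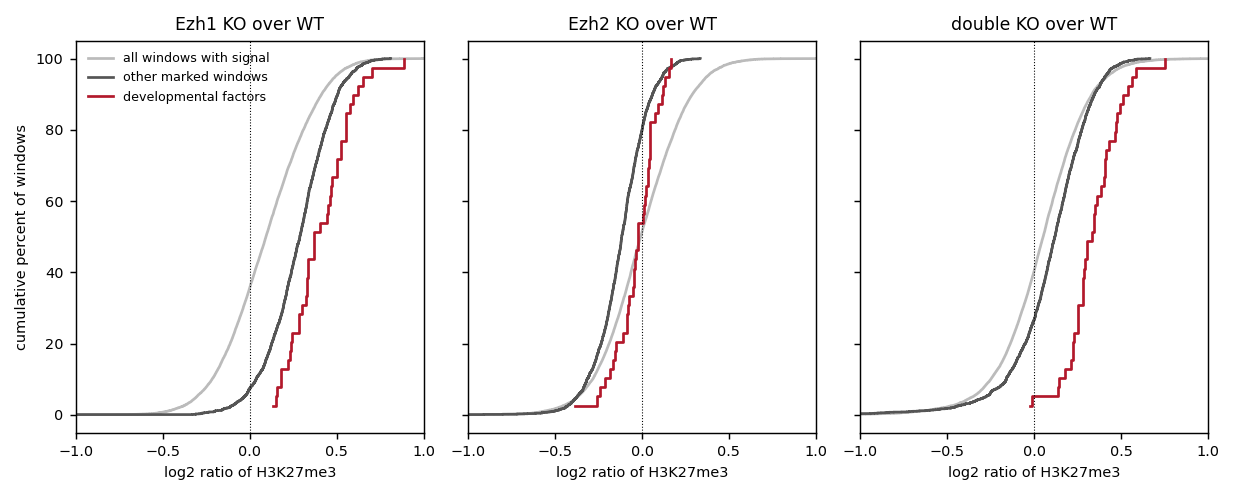
Cumulative percent of windows (y axis) by log2 ratio of H3K27me3 to WT (x axis, shown from -1 to 1) for the 39 members with signal, the 2155 other marked windows and all windows with signal, in each KO. At the median the curve of the members lies right of that of the other marked windows in each panel, by 0.08, 0.09 and 0.21 from left to right. The other marked windows were picked by their WT level, which is the denominator in each panel.

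Across the marked members the levels were more alike in the Ezh1 KO and double KO libraries. The SD of log2 levels among the 36 genes was 0.30 in WT and 0.24, 0.33 and 0.23 in the Ezh1 KO, Ezh2 KO and double KO. Over the 2155 other marked windows it went the other way, at 0.25 in WT and 0.30, 0.33 and 0.36 in the same order. When the 36 were ordered by their level in the Ezh2 KO, a library that the Ezh1 KO and WT comparison does not use, the 18 with lower levels had a median log2 ratio of 0.45 in the Ezh1 KO and the 18 with higher levels 0.33. In the double KO the values were 0.39 and 0.29. These are descriptions of single libraries, and the levels share the same genes and windows.

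The members' windows were rich in CpG. The median was 262 CpG sites per 6 kb window for the 39 members with signal, from 112 in Sox17 to 383 in Sox3, compared with 136 in background windows and 117 in all windows, and the other marked windows had an interquartile range of 115 to 193. Of the 640 windows with at least 250 sites, 23 belong to members, and 21 of these 23 were marked. Among genes with WT RNA under 0.1, the share of marked windows was 1.63% below 50 sites, 34.9% from 100 to 150 sites and 58.9% from 250 sites on. Among genes with WT RNA of 1 or more it was between 0.662% and 1.3% in each CpG band. Not all members were CpG-dense: 8 lay in the band of 100 to 150 sites, 7 of them marked, among them Sox17 (112), Gata4 (116) and, as the unmarked one, Myf5 (114). The other unmarked members, Sox3 (383) and Sox11 (323), were among the richest.

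Within the marked members, more CpG went with less H3K27me3. Over the 36 genes, Pearson's r between CpG sites and WT level was -0.66 and Spearman's rho -0.67, and rho was -0.49, -0.45 and -0.54 in the Ezh1 KO, Ezh2 KO and double KO. Over the 2155 other marked windows r was 0.03 and rho 0.10 in WT. The 12 marked members with the fewest CpG sites (112 to 189), such as Sox17, Olig3, Tbx15 and Tbx20, had a median WT level of 64.8, the 12 in the middle (194 to 277) 55.8, and the 12 with the most (284 to 382), such as Foxd3, Sox1, Foxc1 and Foxf1a, 47.1. The points of each library share its depth and its handling of base composition, and this is a description of these 36 genes.

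The ratios to WT moved with CpG in the other direction. The WT level, which fell with CpG, is their denominator, and its part in this was not tested. Median log2 ratios in the 3 groups of 12, from fewest to most CpG sites, were 0.33, 0.35 and 0.51 in the Ezh1 KO. The Ezh2 KO had -0.06, -0.00 and 0.04, and the double KO had 0.27, 0.36 and 0.41. Of the ratios that do not use WT, the double KO over the Ezh1 KO had -0.09, -0.02 and -0.08 (rho 0.02 over the 36 genes). Over the Ezh2 KO the double KO rose with CpG, with 0.31, 0.40 and 0.45 (rho 0.22). For the ratios to WT rho was 0.45, 0.42 and 0.53 in the Ezh1 KO, Ezh2 KO and double KO. The other marked windows in the same CpG ranges, 1078, 442 and 73 in number, had 0.28, 0.37 and 0.44 in the Ezh1 KO. For them the Ezh2 KO values were -0.12, -0.05 and -0.00, and those of the double KO 0.11, 0.23 and 0.32. Beside windows of like CpG content the members were thus higher in the double KO in each of the 3 ranges, and in the Ezh1 KO in 2 of 3. Over all 2155 other marked windows rho between CpG sites and the ratio to WT was 0.35, 0.35 and 0.42 in the Ezh1 KO, Ezh2 KO and double KO. For their WT level rho was 0.10. The part of CpG content in the differences between members and other marked windows was not tested.

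**Figure D4:**
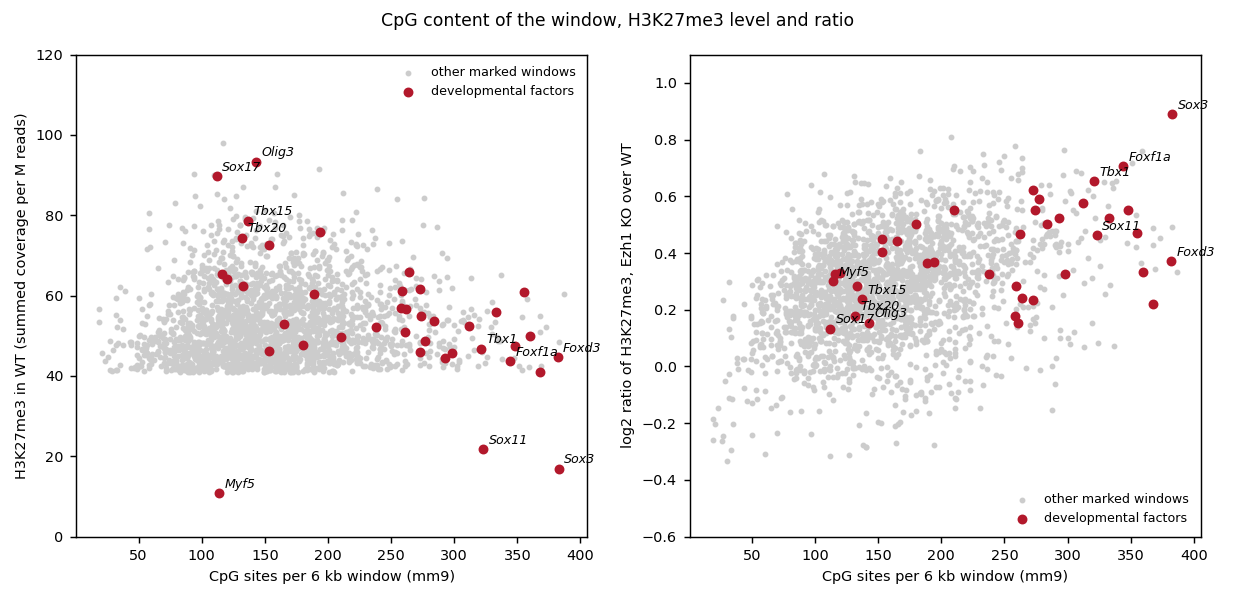
CpG sites in the 6 kb window (x axis, mm9) against the WT level of H3K27me3 (left, coverage per M reads) and the log2 ratio of the Ezh1 KO to WT (right), for the 39 members with signal and the 2155 other marked windows, of which 2 lie above the left axis and 1 outside the right. Members with more CpG sites have lower WT levels (64.8, 55.8 and 47.1 from the fewest to the most sites in marked members) and larger ratios (0.33, 0.35 and 0.51). Both panels use the WT library.

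RNA of the members was at or near 0 in each genotype. RNA is given as the peak of coverage per M reads in each exon, averaged over a gene's exons, and 0 of 42 members reached 0.1 in any library. The highest values were those of 1 to 3 reads at the best-covered base: 0.0277 in WT (Sox2, Foxc1, Foxf1a and Bhlhe22), 0.0426 in the Ezh1 KO (Sox11 and Foxc1), 0.0738 in the Ezh2 KO (Sox2 and Foxc1) and 0.0319 in the double KO (Foxc1). Members listed at 0 were 20 in WT and 5, 8 and 5 in the Ezh1 KO, Ezh2 KO and double KO. The depth of these libraries differed, 1 read having a height of 0.0277, 0.0142, 0.0246 and 0.0106, and the share of all genes listed at 0 was 12.8%, 4.5%, 6.17% and 5.77%, against 47.6%, 11.9%, 19% and 11.9% of the members. WT, the shallowest library, had the most members at 0, and the part of depth in this was not tested. Sox14 and Foxl2, the ovary factor, were at 0 in each library, and 19 members were above 0 in each. In these bulk samples fewer cells that hold an RNA and less of it per cell cannot be told apart.

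No member could therefore be called different in RNA at 2-fold, since a gene needed 0.1 in the higher library. Of the 10612 genes that reached this in the Ezh1 KO comparison with WT, 0.32% were higher and 0.33% lower. Of 10870 genes in the Ezh2 KO comparison 1.29% were higher and 0.506% lower, and of 10757 in that of the double KO 1.17% and 0.279%. Foxc1, a factor of mesoderm, vessels and eye, and the member most often at the top, had 0.0277, 0.0426, 0.0738 and 0.0319, which is 1, 3, 3 and 3 reads at the best-covered base. Its H3K27me3 was 49.8, 63.1, 54.8 and 66.3. Members with lower H3K27me3 in the Ezh2 KO showed no more than this either: Neurog3 had RNA of 0 in WT and 0.0142, 0.0123 and 0.00532 in the Ezh1 KO, Ezh2 KO and double KO. Olig1, Olig2 and Sox21, without ChIP values, had at most 0.0492 (Olig2 in the Ezh2 KO). The unmarked Myf5, Sox3 and Sox11 were at 0 in WT, so an unmarked window did not come with RNA above the trace level there.

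Markers of the other cells of a lymph node were measured beside these traces. Genes of fibroblastic stroma were at 1 or more for 0 of 8 genes in each library, and their summed level was 0.223 in WT and 0.217, 0.279 and 0.442 in the Ezh1 KO, Ezh2 KO and double KO. Endothelial markers had 1 of 6 genes at 1 or more, Pecam1, which T cells also express, with sums of 3.90 to 4.42, while Cdh5 was at 0.0241 to 0.0530 and Tek at 0.00621 to 0.00984. Epithelial markers had 0 of 4, with sums of 0.196 to 0.260. B cell markers reached 1 or more for 3 of 6 genes in the double KO and for 0 in the other libraries, with sums of 1.75, 2.03, 3.32 and 5.67. NK cell markers were at 1 or more for 1, 1, 3 and 2 of 5 genes in WT, the Ezh1 KO, Ezh2 KO and double KO, with sums of 2.03, 1.69, 5.46 and 2.53. Of these Gzma, a granzyme, had 0.226, 0.270, 2.90 and 1.13, and Klrb1c 0.110, 0.0940, 1.03 and 0.0498. CD8 T cell markers had 1, 0, 0 and 1 of 2 genes at that level, with a summed level of 1.22 in WT and, as the highest, 2.07 in the double KO. Myeloid and dendritic markers had 0, 0, 0 and 1 of 8, with sums of 0.532, 0.825, 0.958 and 1.60. Erythroid markers had 0 of 4 in each library, with sums of 0.531, 0.171, 0.0676 and 0.0649, so the WT library was the highest in these and the lowest in B cell and myeloid markers. The part of other cells in the members' trace RNA or in their H3K27me3 was not tested.

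Some relatives used by lymphocytes, in the Fox, Sox and bHLH families, were not marked and had WT RNA of 1 or more. Foxo1, which keeps naive T cells in circulation, had H3K27me3 of 8.81 and RNA of 3.66 in WT, and Foxp1, a quiescence factor and the highest Fox relative in H3K27me3, had 11.4 and 3.47. Sox4 had 19.1 and 1.17, and Id2, an inhibitor of bHLH factors, had 30.3 and 3.65. The windows of Sox4 and Id2 were still higher than 65.7% and 80.7% of all windows with signal in WT. Of the 32 relatives known from lymphocytes 14 had WT RNA of 1 or more, and 7 of the 31 with ChIP signal were marked (22.6%). These marked ones included genes at work in T cell fates: Gata3, the Th2 factor, had H3K27me3 of 81.8 in WT and 96.8, 95.6 and 94.8 in the Ezh1 KO, Ezh2 KO and double KO, with RNA of 0.254, 0.304, 0.238 and 0.303. Eomes, a factor of memory and killer cells, had 62.4 in WT with RNA of 0.122, Sox13 had 48.3 with RNA of 0.0467, and Tal1, a factor of blood stem cells, had 74.6 with RNA of 0. Gata3 thus had a higher window than 37 of the 39 members while its RNA, unlike that of any member, was above 0.1.

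Of 62 other relatives with signal, factors of these families outside the 42, 30 were marked (48.4%), compared with 36 of 39 members. Their median H3K27me3 was 40.3 in WT and 53.3, 35.5 and 46.8 in the Ezh1 KO, Ezh2 KO and double KO. Their median log2 ratios to WT were 0.33, -0.09 and 0.21, each below that of the members (0.37, -0.02 and 0.33). Foxi3 (76.5), Foxd4 (72.1) and Foxe3 (66.8) were the highest of them in WT. The list of 42 thus holds a larger share of marked genes than these other relatives. The list was drawn up with earlier results of these data known, so this difference is no finding about the members, and it was not tested.

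**Figure D5:**
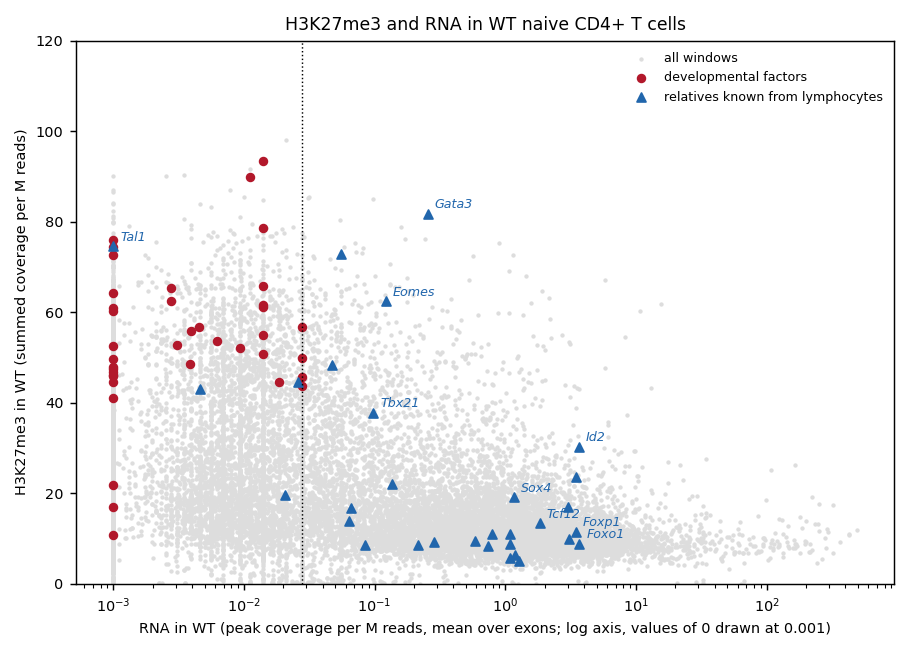
H3K27me3 (y axis, coverage per M reads summed over the 6 kb window) against RNA (x axis, peak coverage per M reads averaged over exons, log scale, values of 0 drawn at 0.001) in WT, for the members, the relatives known from lymphocytes and all windows; the dotted line is the height of 1 read, 0.0277. All members lie at or left of that line, while Foxo1, Foxp1 and Id2 lie at RNA above 3 and Gata3 and Eomes are high in H3K27me3 at RNA of 0.254 and 0.122.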

How the data were processed

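Alignment was to mm9 with Bowtie 0.12.7, per the labels; bcl2fastq, Cufflinks and Cuffdiff stand in the submitters' processing notes with no role given. The ChIP files hold coverage signal as deposited: area and highest bin at each start site, per the file headers. Their values fit coverage per M reads with each read drawn out to 151 bp. RNA files hold, also as deposited coverage signal, the peak height per exon as a mean and a median over exons, and one other number, the exons of each gene. Input subtraction is not given in the sources used here, and with no input or spike-in used the differences are relative.

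The pseudocount of log2 ratios was 1 (ChIP) or 0.1 (RNA), and a feature needed 1 (ChIP) or 0.1 (RNA) in the higher library. Counting intervals came from read equivalents (area times depth times 25 bp over 151 bp), and as reads without molecular identifiers can be PCR copies, they cover counting error only. Calls and intervals were checked on simulated data. Tools were Python 3.11.15, pandas 2.3.3, numpy 2.4.6, scipy 1.17.1 and matplotlib 3.10.9. Values are named for the highest and lowest window of each family, the largest ratios, each called or unmarked member, and lymphocyte relatives at the top of each family. The members and lists were chosen with earlier results of these data known, and the printed promoters after the values were seen. The planned promoter motif check is void, since 26 of 42 members had an entry. Of the members, 41 of 42 were in the GENCODE annotation of mm9, all 41 with a window centred within 1000 bp of an annotated start.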

Additional observations from a re-analysis of the deposited data

How the results depend on the processing

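With medians of marked windows set equal between libraries, the members' median log2 ratio moved to 0.060 (Ezh1 KO), 0.19 (double KO) and 0.14 for the double KO over the Ezh2 KO, and changed sign to 0.085 in the Ezh2 KO and 0.10 for the double KO over the Ezh1 KO. By the highest bin it changed sign to 0.12 in the Ezh2 KO and moved to 0.13 for the double KO over the Ezh2 KO. The number of members at least 1.5-fold higher in the Ezh1 KO, 5 as reported, was 2 with a pseudocount of 10, 3 by the highest bin, 2 with TMM and 2 with median-of-ratios scaling, 9 with background medians set equal, 0 with marked medians set equal, 0 at 2-fold and 27 at a log2 ratio of 0.32. In the double KO, 2 as reported, it was 0, 4, 1, 1, 1, 1, 0 and 20 in the same order, and for the double KO over the Ezh2 KO, 2 as reported, 0, 1, 0, 0, 8, 0, 0 and 24. At the lower threshold 1 member (2.56%) was lower in the Ezh2 KO, against 7.57% of all windows and 8.9% of marked windows. In the double KO 2 (5.13%) were lower than in the Ezh1 KO, against 12.2% and 14%. The 24 higher in the double KO than in the Ezh2 KO (61.5%) stood beside 10.8% of all windows and 27.5% of marked windows. Marked members were 11 at 6 times the background median and 14 by the highest bin, and 2 members had RNA of 0.05 or more in the Ezh2 KO. Shares of all windows or genes were not computed for these counts. Nor were they for the 1.5-fold counts with another pseudocount, another scaling or the highest bin. These counts thus have no comparison. In all 33 values moved and 3 changed sign, and 149 stayed within a tolerance, which was 1.5 times for a count and the 95% counting interval of the member at the median for a median; the causes were not tested.

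Limits of all results are that 1 library stands for each genotype and that the scale between libraries is relative. Relative to WT, median-of-ratios scaling shifts every ratio by -0.10 in the Ezh1 KO, and equal marked medians by -0.32, 0.11 and -0.15 in the Ezh1 KO, Ezh2 KO and double KO. Since a scaling shifts all ratios alike, it says nothing of the distance between the members' median and that of the other marked windows. By the highest bin this distance was 0.11, 0.12 and 0.16 in the same order, against 0.08, 0.09 and 0.21 by area. The other marked windows were picked by their WT level and the members by name, and the part of this in these distances was not tested. No paired analysis was possible because each genotype has 1 library per assay. The comparisons between mutants were added after the plan.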
